A study of Saccharomyces cerevisiae with 6 samples.

Results

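The 38 genes described here encode the machinery that attaches sugars to proteins of the yeast secretory pathway. They were chosen by name as members of the lipid-linked oligosaccharide (ALG) pathway (14 genes), the oligosaccharyltransferase (9), the mannosyltransferases of the Golgi (9) and the protein O-mannosyltransferases (6), out of 5449 S. cerevisiae genes on the array. For each of the 38, 1 probe set was used. Cells that overexpressed Med3-GST (labelled GST-med3) were compared with control cells that overexpressed GST, with 3 biological replicates each (A, B and C) and 1 Affymetrix Yeast Genome 2.0 Array per replicate. Both proteins came from a plasmid with the galactose-induced GAL1/10 promoter, both groups were kept in galactose medium lacking uracil, and RNA was taken after 48 h of induction. The strains that carried these plasmids in the study derive from BY4741, a MATa strain, and the derivative used on the arrays is not named.

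N-linked glycans are built on the lipid dolichol in the membrane of the endoplasmic reticulum (ER). The Alg enzymes add N-acetylglucosamine and mannose on the cytosolic face, the chain is flipped, and further mannose and glucose are added on the lumenal face. Oligosaccharyltransferase then moves the finished chain to asparagine residues of proteins entering the ER, and mannosyltransferases of the Golgi extend it into the long outer chains of yeast mannoproteins. In a separate pathway, the Pmt enzymes attach mannose to serine and threonine residues in the ER. Yeast needs both kinds of glycan for its cell wall and for protein folding.

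Values are log2 of the deposited signal unless said otherwise, and a difference is Med3-GST minus GST. The transcript of MED3 itself, listed as PGD1, had 11.85, 11.73 and 11.84 in the Med3-GST replicates (in the order A, B, C, here and for each gene), against 8.24, 8.01 and 8.07 in the GST replicates, a difference of 3.70 in the direction of the labels. The array also carries S. pombe probe sets, whose 95th percentile (7.50) stands for background. Of the 4 α-cell genes, MF(ALPHA)1 and MF(ALPHA)2 lay below it and STE3 and SAG1 above it, and all 6 a-cell genes lay above it. As deposited, 4 of the 6 a-cell genes were higher with Med3-GST, and of the 4 galactose genes GAL1, GAL2, GAL7 and GAL10, 0 were higher and 1, GAL10, was lower (27.1% of all probe sets were higher and 47.8% lower). After centring all 6 a-cell genes were higher, and 2 galactose genes were higher and 0 lower (43.6% and 41.7% of all probe sets). Of the α-cell genes, MF(ALPHA)1, MF(ALPHA)2 and SAG1 were higher and STE3 was lower, both as deposited and after centring. Of the 4 genes deleted in whole or in part in BY4741, MET17 lay below the background level and HIS3, LEU2 and URA3 above it. Whether the differences of the mating-type and galactose genes bear on the results on glycosylation genes was not tested. The arrays of the Med3-GST group had medians of 9.87 to 9.99 over all S. cerevisiae probe sets and those of the GST group 9.99 to 10.08. The median difference over all 5498 probe sets was therefore -0.085 as deposited, and 0.01 once the median of an array was subtracted from its values (centring). Calls were made with limma at a Benjamini-Hochberg adjusted p under 0.05 over all 5498 probe sets. As deposited, limma shared a single spread among the probe sets and gave each difference the same standard error (SE), 0.05, and for this reason calls as deposited are given by their side of the threshold and adjusted p-values only after centring. In these cultures, a change per cell cannot be told apart from a change in the share of cells that make a transcript.

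Glycosylation genes moved in both directions, and mostly by small steps. As deposited, 10 of the 38 members were higher in cells with Med3-GST, 15 were lower and 13 were not called. The shares were close to the background, since 27.1% of all probe sets were higher (26.3% of the members) and 47.8% were lower (39.5% of the members). After centring, 19 members were higher and 14 lower, where 43.6% of all probe sets were higher and 41.7% lower. The median difference of the members was -0.04 as deposited and 0.06 after centring. All 10 members called higher and 14 of the 15 called lower kept their call and direction after centring, and 9 of the 13 uncalled members became higher. The Med3-GST and GST replicates did not overlap for 26 of the 38 members, where the same was true of 75.0% of all probe sets (35 members and 85.4% after centring). All 38 members had a mean signal above the background level, the lowest group mean being 8.82. Differences were under 0.5 in size for 35 members, and 1 member, ALG3, passed 2-fold, which 1.84% of all probe sets did in either direction.

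**Figure D1:**
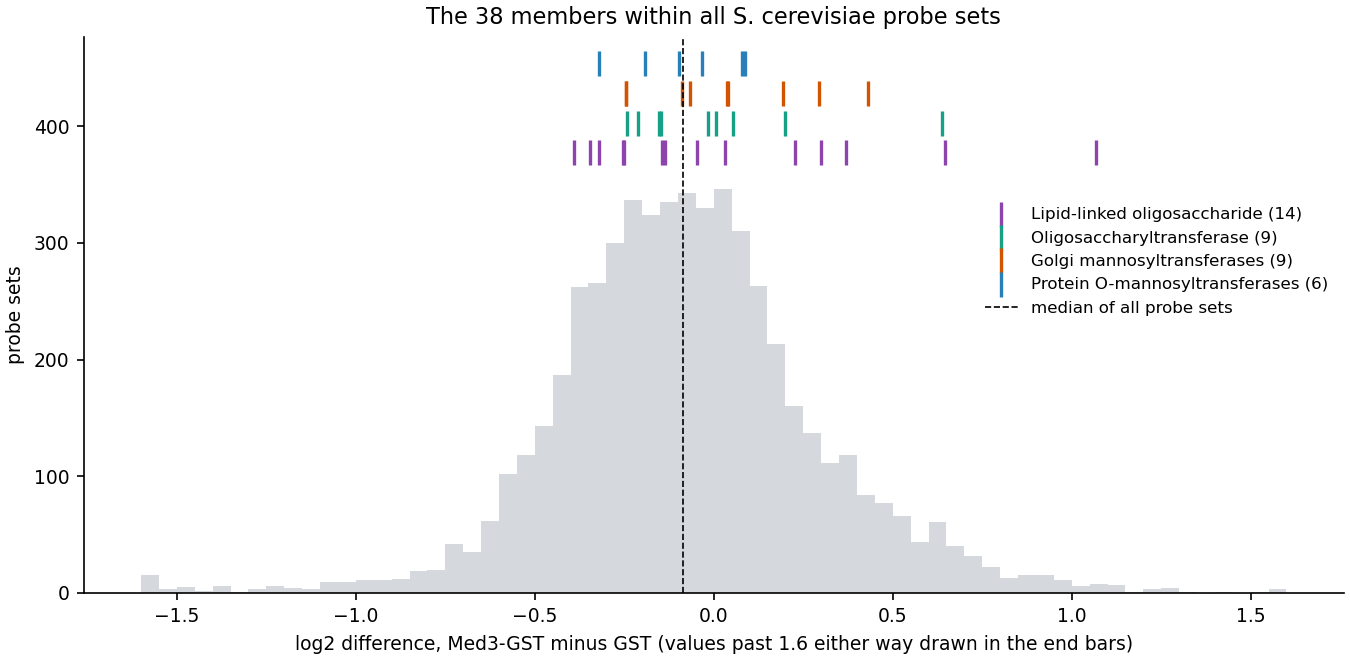
The histogram shows the log2 difference (Med3-GST minus GST, as deposited) of all 5498 S. cerevisiae probe sets, and the coloured ticks above it show the 38 members by role, with the median of all probe sets (-0.085) dashed. The members spread on both sides of that median, and ALG3 at 1.07 lies furthest out.

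The sugar chain on dolichol held the largest increases and the largest decrease of the 38 genes. ALG3, the mannosyltransferase that opens the lumenal stage of assembly, was 2.10-fold higher with Med3-GST. It had 9.87, 9.86 and 9.93 with Med3-GST, against 8.91, 8.71 and 8.83 with GST. Each Med3-GST array lay above each GST array, and the difference was 1.07 (95% interval 0.97 to 1.17) as deposited and 1.16 ± 0.03 (SE) after centring (limma adjusted p = 2.46e-12). Among all 5498 probe sets it ranked 25 from the highest.

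ALG13 and ALG14, which together form the enzyme that adds the second N-acetylglucosamine, moved in opposite directions. ALG14, the membrane anchor of the pair, had 10.11, 9.97 and 10.09 with Med3-GST, against 9.46, 9.37 and 9.40 with GST. ALG13, the catalytic subunit, had 10.21, 10.19 and 10.29 with Med3-GST, against 10.67, 10.54 and 10.64 with GST. Neither gene had overlapping groups. ALG14 rose by 0.65 and ALG13 fell by 0.39, and after centring the differences were 0.74 and -0.29 (limma adjusted p = 8.22e-12 and 1.63e-07).

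The other genes of the cytosolic face were likewise split. ALG7, the tunicamycin-sensitive enzyme that starts the chain, rose by 0.30, with 10.27, 10.19 and 10.29 in Med3-GST replicates and 10.05, 9.89 and 9.91 in GST replicates. ALG1, which adds the first mannose, and ALG11, which adds the last mannoses on this face, both fell by 0.25. ALG2, which works between them, had a difference of -0.05 (interval -0.14 to 0.05) and was not called. Of the 6 genes of the cytosolic face, 2 rose, 3 fell and 1 was not called, and the counts were the same after centring. Among all probe sets 27.1% were higher and 47.8% lower as deposited, and 43.6% and 41.7% after centring.

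On the lumenal face, the mannosyltransferase genes that follow ALG3 did not share its increase as deposited, and after centring ALG9 was higher and ALG12 lower. ALG9 had a difference of 0.03, with 10.78, 10.73 and 10.78 in Med3-GST replicates and 10.78, 10.68 and 10.73 in GST replicates, which overlap. It was not called as deposited and was higher after centring, by 0.13 (limma adjusted p = 0.000214). ALG12 fell by 0.14 as deposited, and after centring the difference was -0.05 (limma adjusted p = 0.0488). The glucosyltransferase genes ALG6 and ALG8 fell by 0.32 and 0.14. ALG6 had 11.43, 11.36 and 11.45 with Med3-GST, against 11.80, 11.63 and 11.76 with GST, and it remained lower after centring. The call of ALG8 was lost after centring, at a difference of -0.04 (limma adjusted p = 0.102). DIE2, which adds the last glucose and is not among the 38 genes, went the other way, with a difference of 0.87 as deposited and 0.96 after centring (limma adjusted p = 4.57e-12).

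The enzymes that load sugars on dolichol rose, whereas the kinase that makes dolichol phosphate fell. DPM1, the dolichol phosphate mannose synthase that serves the lumenal mannosyltransferases and the Pmt enzymes, had 11.81, 11.66 and 11.76 in Med3-GST replicates, against 11.46, 11.28 and 11.37 in GST replicates. ALG5, which makes the glucose carrier used by Alg6 and Alg8, had 10.76, 10.65 and 10.76 with Med3-GST, against 10.55, 10.47 and 10.46 with GST. Neither gene had overlapping groups, and the differences were 0.37 and 0.23. The dolichol kinase gene SEC59 had 9.53, 9.46 and 9.52 with Med3-GST, against 9.91, 9.82 and 9.82 with GST, a difference of -0.35. After centring all 3 kept their call, with 0.47, 0.32 and -0.25.

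**Figure D2:**
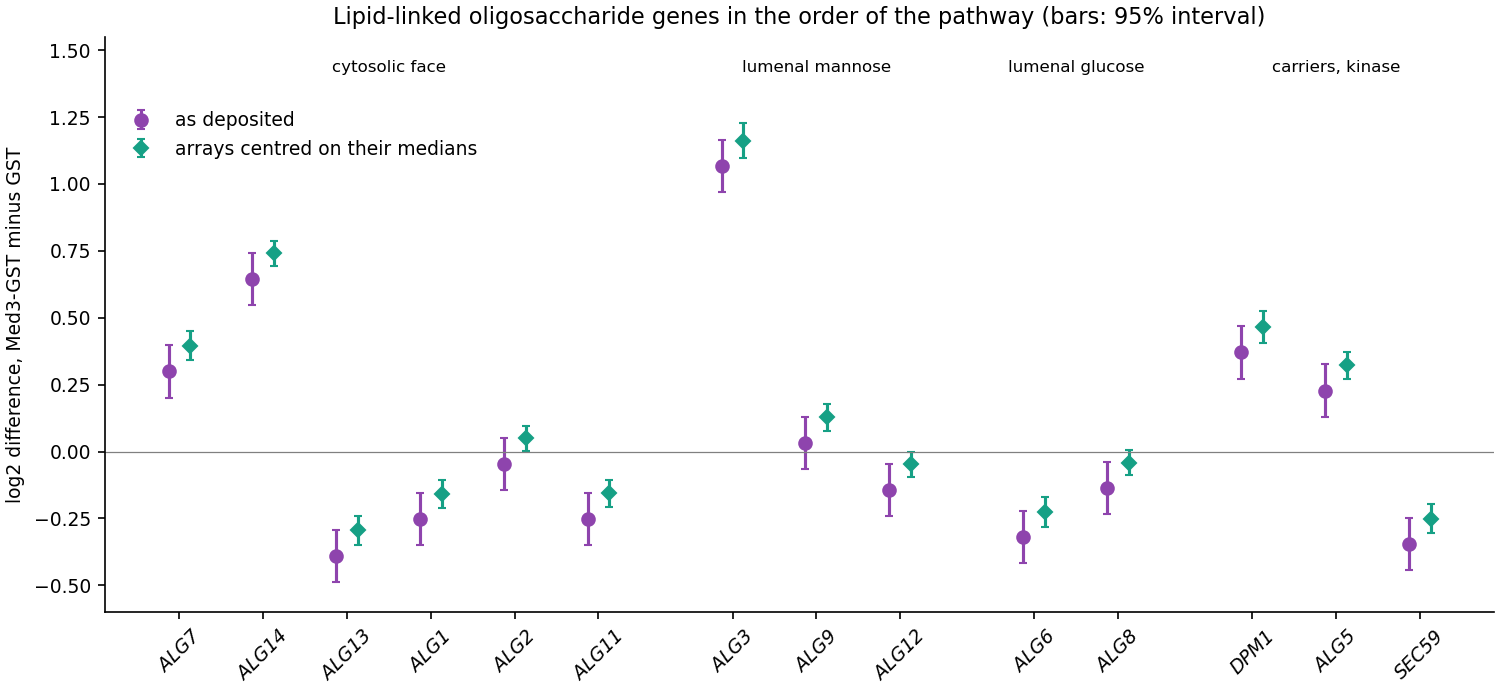
The log2 difference (Med3-GST minus GST) of the 14 genes of the lipid-linked oligosaccharide is shown in the order of the pathway, as deposited (circles) and with centred arrays (diamonds), with 95% intervals from limma. Increases and decreases stand side by side on the cytosolic face, among the lumenal mannose genes and among the carriers. ALG6 and ALG8, the lumenal glucose genes shown, lie below 0, and ALG8 was not called after centring. DIE2, which adds the last glucose and is not shown, rose by 0.87. ALG3 at 1.07 and ALG13 at -0.39 are the extremes as deposited.

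Among the 9 subunits of oligosaccharyltransferase, the smallest changed most. OST4, a very short membrane protein that holds Ost3 or Ost6 to the catalytic subunit Stt3, had 11.14, 11.07 and 11.18 in Med3-GST replicates, against 10.55, 10.43 and 10.48 in GST replicates. These groups did not overlap, and the transcript was 1.56-fold higher, by 0.64 as deposited and 0.73 after centring (limma adjusted p = 6.42e-12). OST5, another small subunit, rose by 0.20, with 11.93, 11.80 and 11.89 in Med3-GST replicates and 11.74, 11.65 and 11.64 in GST replicates.

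The other subunits were not called or fell as deposited. STT3 had 10.70, 10.67 and 10.77 with Med3-GST, against 10.81, 10.67 and 10.72 with GST, and its difference of -0.02 (interval -0.12 to 0.08) was not called. OST1 had a difference of 0.01 (interval -0.09 to 0.10) and was not called either. After centring both were higher, STT3 by 0.08 and OST1 by 0.10. OST2, the subunit related to the antiapoptotic protein DAD1 of animals, had 11.65, 11.48 and 11.64 with Med3-GST, against 11.83, 11.83 and 11.84 with GST, and fell by 0.24. WBP1 and SWP1, which form a subcomplex with Ost2, fell by 0.21 and 0.15.

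OST3 and OST6 encode alternative oxidoreductase subunits, so that a cell holds 2 kinds of the enzyme. OST3 had 11.60, 11.45 and 11.55 with Med3-GST, against 11.53, 11.41 and 11.49 with GST. OST6 had 10.93, 10.84 and 10.92 with Med3-GST, against 11.08, 10.99 and 11.05 with GST. The OST3 groups overlapped and the OST6 groups did not. OST6 fell by 0.15 and OST3, with 0.05, was not called. After centring OST3 was higher by 0.15 (limma adjusted p = 8.37e-05) and OST6 lower by 0.05 (limma adjusted p = 0.0405). As deposited, 2 subunits rose (22.2%) and 4 fell (44.4%), near the 27.1% and 47.8% of all probe sets, and 3 were not called. After centring 5 were higher (55.6%) and 4 lower (44.4%), where 43.6% and 41.7% of all probe sets were.

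**Figure D3:**
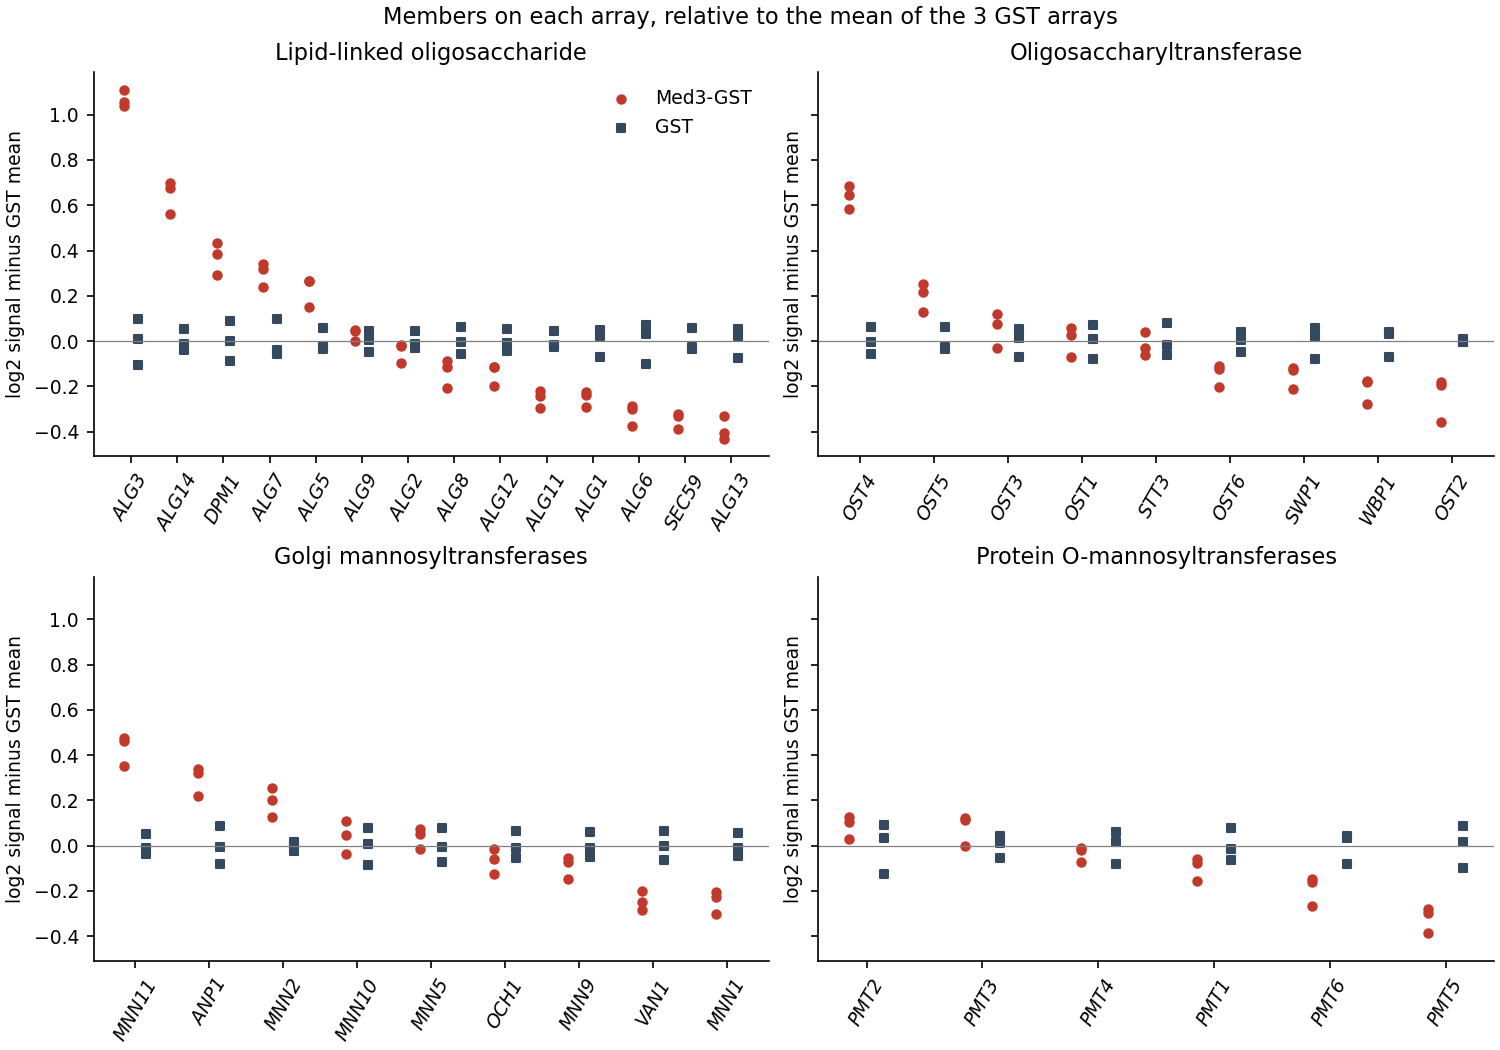
Each point is 1 array, plotted as its log2 signal minus the mean of the 3 GST arrays for that gene, with Med3-GST (red circles) left of GST (dark squares) and genes ordered by their difference within each role. The ALG pathway spans the widest range, and the Med3-GST points of ALG3, ALG14 and OST4 stand well above their GST points.

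In the Golgi, the genes of the mannan polymerases were split between rises and falls. MNN11, a subunit of mannan polymerase II, rose most, with 10.83, 10.72 and 10.84 in Med3-GST replicates, against 10.42, 10.33 and 10.36 in GST replicates. The groups did not overlap, and the difference was 0.43 as deposited and 0.52 after centring (limma adjusted p = 1.04e-10). Its homolog MNN10, in the same complex, had 10.81, 10.72 and 10.87 with Med3-GST, against 10.84, 10.68 and 10.76 with GST. These groups overlapped, and the difference of 0.04 was not called as deposited but was higher after centring, at 0.13. ANP1, a further subunit of this complex, rose by 0.29, with 9.64, 9.54 and 9.66 with Med3-GST, against 9.41, 9.24 and 9.31 with GST.

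MNN9 takes part in both mannan polymerases, with VAN1 in the first and with ANP1, HOC1, MNN10 and MNN11 in the second. MNN9 had 10.88, 10.79 and 10.87 in Med3-GST replicates, against 11.00, 10.89 and 10.93 in GST replicates, and its difference of -0.09 (interval -0.19 to 0.01) was not called, although its groups did not overlap. After centring this was 0.01 (interval -0.04 to 0.05). VAN1 had 10.18, 10.10 and 10.14 with Med3-GST, against 10.45, 10.32 and 10.38 with GST, and fell by 0.24. HOC1, which is not among the 38 genes, fell by 0.18 (-0.09 after centring, limma adjusted p = 0.00354). Of the 4 subunits found in polymerase II alone, 2 thus rose, 1 fell and 1 was not called as deposited. Among all probe sets 27.1% rose and 47.8% fell. After centring MNN11, ANP1 and MNN10 were higher and HOC1 was lower, where 43.6% of all probe sets were higher and 41.7% lower.

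OCH1, which starts the outer chain, had 10.58, 10.51 and 10.63 with Med3-GST, against 10.71, 10.59 and 10.63 with GST. Its groups overlapped and its difference of -0.07 (interval -0.16 to 0.03) was not called under either scale. MNN2, which starts the branches, rose by 0.19, while MNN5, which extends them, had 0.04 and was not called as deposited. MNN1, which caps chains with mannose, had 10.63, 10.53 and 10.61 with Med3-GST, against 10.89, 10.79 and 10.82 with GST, and fell by 0.24. Of 9 Golgi genes, 3 rose (33.3%), 2 fell (22.2%) and 4 were not called, where 27.1% of all probe sets rose and 47.8% fell. After centring 5 were higher (55.6%) and 2 lower (22.2%), where 43.6% and 41.7% of all probe sets were.

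In the PMT family, 0 of 6 genes were higher and 2 lower (33.3%) as deposited, where 27.1% and 47.8% of all probe sets were. After centring 3 were higher (50%) and 2 lower (33.3%), where 43.6% and 41.7% of all probe sets were. PMT5 had 9.37, 9.28 and 9.38 in Med3-GST replicates, against 9.75, 9.56 and 9.68 in GST replicates, and fell by 0.32 (-0.22 after centring, limma adjusted p = 2.96e-06). PMT6 had 10.04, 9.92 and 10.02 with Med3-GST, against 10.23, 10.11 and 10.22 with GST, and fell by 0.19. Neither gene had overlapping groups.

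The other 4 genes of the family were not called as deposited. PMT1 and PMT2, whose proteins form the main O-mannosyltransferase complex, had differences of -0.10 (interval -0.20 to 0.00) and 0.09 (interval -0.01 to 0.18). PMT3, whose protein can pair with Pmt5, had 0.08 (interval -0.02 to 0.18), and PMT4, which acts as a homomer on membrane-bound proteins, had -0.03 (interval -0.13 to 0.06). The intervals leave room for changes of up to 0.20 in size. After centring PMT2, PMT3 and PMT4 were higher, by 0.18, 0.17 and 0.06, whereas PMT1, with a difference within 0.05 of 0 (interval -0.05 to 0.05), was not called.

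A ratio of 2 genes on the same array does not move with the scaling of that array, so partner genes were also compared in this way. The 13 pairs were picked with the values known, and the exact permutation test of 3 arrays against 3 (two-sided) cannot give a p below 0.1, the value that all 13 pairs reached (0.1 also after Benjamini-Hochberg adjustment over them). The log2 ratio of ALG14 to ALG13, set against its mean in the GST arrays, was 1.10, 0.99 and 1.01 with Med3-GST, against 0.00, 0.03 and -0.04 with GST. That of ANP1 to VAN1 shifted by 0.54, with an SD of 0.04 in Med3-GST replicates and 0.02 in GST replicates. That of DPM1 to SEC59 shifted by 0.72 and that of OST4 to STT3 by 0.66.

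Smaller shifts than these were found for other pairs of related genes. The ratio of MNN11 to MNN10 shifted by 0.39 and that of PMT3 to PMT5 by 0.40. The ratio of OST3 to OST6 was 0.23, 0.17 and 0.20 above its GST mean with Med3-GST, against 0.01, -0.02 and 0.01 with GST. That of PMT2 to PMT1 shifted by 0.18 and that of MNN2 to MNN5 by 0.16.

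**Figure D4:**
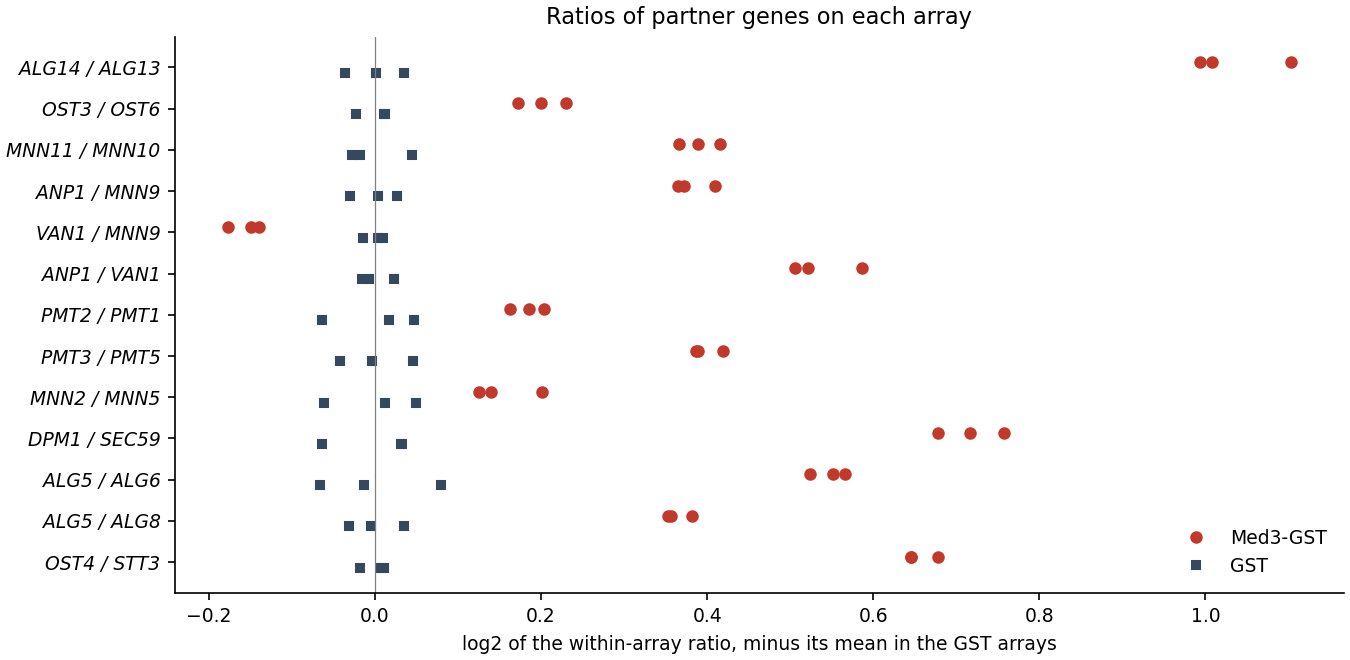
For each of 13 gene pairs, the log2 ratio of the first gene to the second on each array is plotted relative to its mean in the 3 GST arrays, with Med3-GST replicates (red circles) above GST replicates (dark squares). The pair ALG14 and ALG13 shows the largest shift, 1.03. The sign of a shift depends on which gene of a pair is named first, and that of VAN1 to MNN9 was -0.16.

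Position in the genome was not used to choose the genes. Of the 38 members, 19 have a divergent neighbour that was measured, that is, an adjacent gene of the R64 assembly transcribed away from the member. ALG14 and its neighbour YBR071W both rose, by 0.65 and 1.01. ALG3 rose together with YBL081W (0.39), ALG7 with GPX2 (0.60) and ALG5 with NEW1 (0.29), while ALG13 fell together with RPT6 (-0.25). SEC59 and BUD22, with -0.35 and 0.28, went opposite ways, and so did ALG1 and CMD1, with -0.25 and 0.41. In all, both genes were called in the same direction in 7 of the 19 pairs (36.8%) and in opposite directions in 3 (15.8%), where all 1287 divergent pairs gave 32.2% and 22.4%. After centring the counts were 9 (47.4%) and 7 (36.8%), where all pairs gave 40.2% and 32.7%. PMT1 and PMT5 lie next to each other, transcribed the same way, and of these PMT5 fell and PMT1 was not called.

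Genes that surround the 38 in the pathway were counted from lists written from textbook knowledge, and are read beside the 27.1% of all probe sets that were higher and the 47.8% that were lower (43.6% and 41.7% after centring). Of 16 measured genes that supply sugar donors and dolichol, 8 rose (50%), 4 fell (25%) and 4 were not called, with a median difference of 0.15. GDA1, the guanosine diphosphatase that supports transport of GDP-mannose into the Golgi, rose by 0.49. GFA1 and QRI1, which act at the start and the end of UDP-N-acetylglucosamine synthesis, rose by 0.48 and 0.44, and DFG10, which takes part in dolichol synthesis, rose by 0.42. After centring 12 of these genes were higher (75.0%) and 4 lower (25.0%).

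Of 14 genes of N-glycan trimming and glycoprotein quality control, 11 fell (78.6%, where 47.8% of all probe sets did), 1 rose (7.14%, where 27.1% did) and 2 were not called, with a median of -0.32 (-0.22 after centring, with the same counts, where 41.7% of all probe sets were lower and 43.6% higher). The vacuolar mannosidase gene AMS1 fell by 0.63 and YOS9, a lectin of ER-associated degradation, by 0.49. CWH41, glucosidase I, which removes the first glucose from the transferred chain, fell by 0.39, and DER1, a component of the degradation channel, by 0.35. MNL1, a mannosidase that marks glycoproteins for degradation, rose by 0.24.

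Of 14 measured other Golgi mannosyl genes, 9 fell (64.3%), 2 rose (14.3%) and 3 were not called, where 47.8% of all probe sets fell and 27.1% rose. After centring 9 were lower (64.3%) and 4 higher (28.6%), where 41.7% and 43.6% of all probe sets were. MNN4, a positive regulator of mannosylphosphate transfer, fell by 0.67, and the mannosyltransferase genes KTR4 and MNT2 by 0.45 and 0.30. KTR3, of the same family as KTR4, rose by 0.49. Of 7 genes of the glycosylphosphatidylinositol (GPI) anchor, 3 fell (42.9%, near the 47.8% of all probe sets) and 4 were not called (1 higher and 3 lower after centring). Those that fell were PBN1 with -0.51, GPI13 with -0.23 and GPI10 with -0.16.

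Of 16 ER folding genes, 4 were higher (25.0%), 9 lower (56.2%) and 3 not called, shares near the 27.1% and 47.8% of all probe sets. After centring 6 were higher (37.5%) and 7 lower (43.8%), near the 43.6% and 41.7% of all probe sets. EPS1 and MPD1, of the protein disulfide isomerase family, fell by 0.57 and 0.29, LHS1, an Hsp70-like chaperone, fell by 0.51, and SCJ1, a J-domain co-chaperone, rose by 0.42. The isomerase family was split, since PDI1 rose by 0.25, whereas MPD2 and EUG1 fell by 0.27 and 0.12. After centring PDI1 had 0.34, MPD2 -0.17 and EUG1 -0.02, and EUG1 was no longer called. KAR2, the main Hsp70 of the ER and a standard target of the unfolded protein response, had a difference of 0.06 (interval -0.04 to 0.16) and was not called as deposited. After centring it was higher by 0.15. Of the 9 translocon genes, 6 rose (66.7%, where 27.1% of all probe sets did) and 2 fell (22.2%, where 47.8% did). After centring 7 were higher (77.8%) and 1 lower (11.1%), where 43.6% and 41.7% of all probe sets were. The channel genes SEC61 and SSS1 rose by 0.52 and 0.37 and SSH1, of the second channel, by 0.25, while SBH1, the small partner of Sec61, fell by 0.53.

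**Figure D5:**
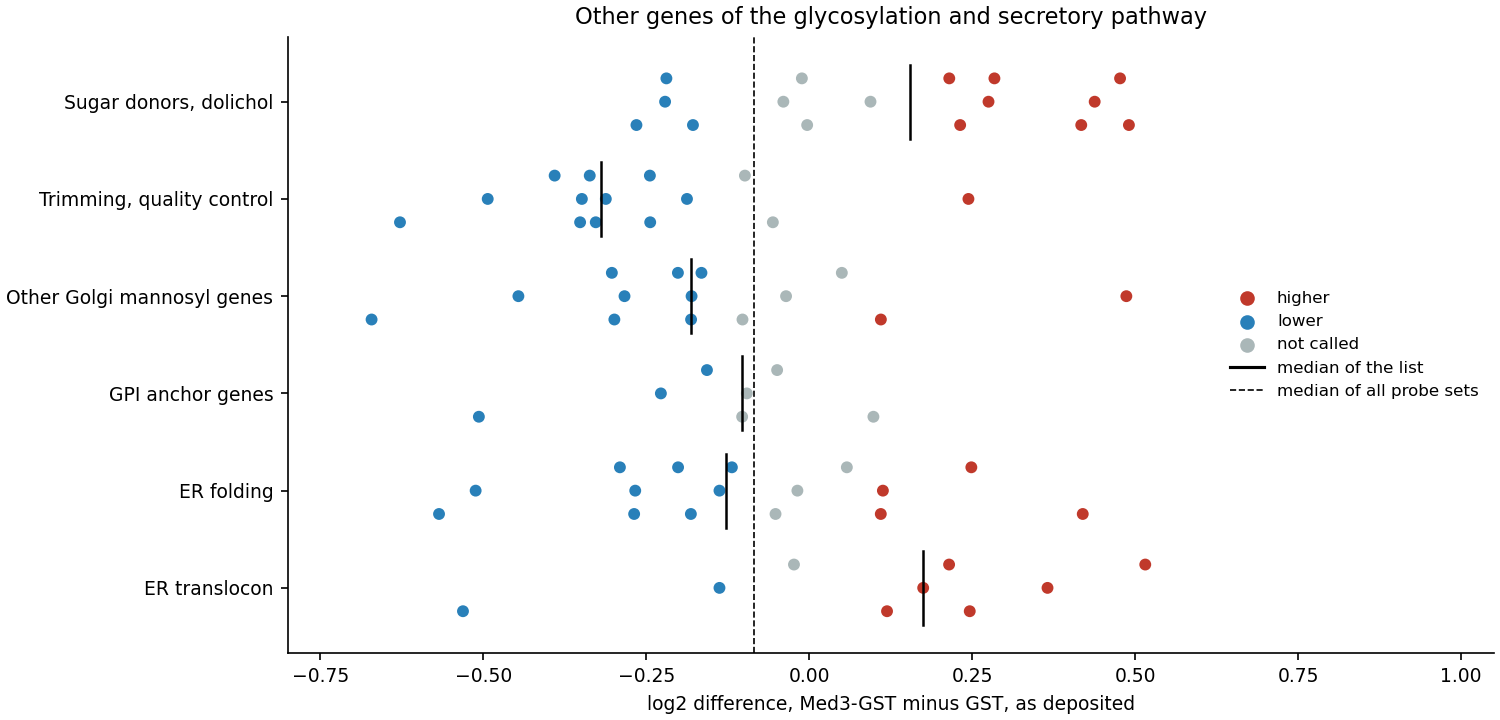
Each point is 1 gene of a list of surrounding pathway genes, at its log2 difference (Med3-GST minus GST, as deposited), coloured by its limma call, with the median of the list as a solid line and that of all probe sets (-0.085) dashed. The genes of trimming and quality control centre on -0.32, while those of sugar donors and of the translocon centre on 0.15 and 0.18.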

How the data were processed

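RNA of 6 cultures, 3 per group, was hybridized to 6 arrays. For each array the authors deposited a log10 signal of every probe set (10 to the deposited value has at most 2 decimals in 100.0% of cells). They state a normalization within each experiment, and no source used here gives the background correction or the probe summary. Probe sets were named through the platform annotation and assembly R64. Of 10928 probe sets, 5498 named an S. cerevisiae gene and were tested, 1747 named S. pombe genes and 3683 had no gene listed. Values were converted to log2 and fitted with limma 3.58.1 (R 4.3.3, lmFit and eBayes, no trend, two-sided), with no filter on low signal. A gene with several probe sets was represented by the brightest over the 6 arrays. Precision is limited by the number of arrays. The members and all lists were chosen with earlier results of these data known.

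Within each role the members with the largest called changes and their partners are given per array, and up to 4 called genes per surrounding list. MNL1, KAR2, PDI1, MPD2, EUG1 and HOC1 are counted in the surrounding lists and were picked for naming after their values were seen. DIE2, the divergent neighbours and the gene pairs were added after their values were seen. SEC63 is counted among both the ER folding genes and the translocon genes. No probe set was annotated to MNN14, which was not used here. Promoter motifs were planned and not analysed here. Alternatives were centring, quantile normalization, background subtraction, a filter on dim probe sets, other variance models, a replicate block, 1 probe set per gene and leaving out each array.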

Additional observations from a re-analysis of the deposited data

How the results depend on the processing

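The scaling of the arrays moved the balance of directions. As deposited, 10 members were higher and 15 lower, with a median difference of -0.04. Centring each array gave 19 higher members and a median of 0.055, and 2395 of all probe sets higher in place of 1488. Quantile normalization gave 20 higher members and a median of 0.051. Background subtraction with a floor of 16 units and centring gave 20, a median of 0.060 and 2406 of all probe sets. The replicate block with centring gave 19, a median of 0.055 and 2412. Counts of lower members stayed between 12 and 17 under all alternatives. Without each array in turn, 10 to 13 members were higher and 14 to 17 lower.

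Of the 25 called members, 21 kept call and direction under every alternative, including all 10 that rose, and none of the 25 turned its direction. ALG8, ALG12, OST6 and SWP1 lost their call under at least 1 alternative (ALG8 also without GST replicate A). Some uncalled members below 0 as deposited were called above 0 after rescaling. STT3 had 0.078 after centring, 0.092 after quantile normalization, 0.084 after background subtraction and 0.078 with the replicate block and centring. PMT4 had 0.061, 0.067 and 0.061 after centring, background subtraction and the replicate block with centring. ALG2 had 0.048 after quantile normalization and 0.053 after background subtraction, and OCH1 0.053 after quantile normalization.

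Over probe sets, the deviations of same-letter arrays from their group means correlated at 0.04, 0.03 and 0.06. Each array correlated best with its own letter. Such correlations leave out a shift of a whole array, so they do not decide whether the replicates were paired. Replicate B had the lowest median in both groups, 9.87 with Med3-GST and 9.99 with GST. With the replicate block, the SE as deposited was 0.033 in place of 0.05, and 12 members were higher and 17 lower. Without the block, every difference as deposited had the same SE, so a call depended on the size of the difference alone. The uncalled differences there reached -0.10 (PMT1) and 0.09 (PMT2). With the block, 4 of the uncalled members were called, namely PMT1, PMT2, PMT3 (0.08) and MNN9 (-0.09).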
